A study of Mus musculus with 30 samples.

Results

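The genes described here are 10 that encode secreted mediators of macrophages and monocytes and their brakes: Il6, Il12b, Il12a, Tnf, Il1a, Il15 and Il27, the anti-inflammatory cytokine Il10, the interleukin 1 receptor antagonist Il1rn, and Socs3, an intracellular inhibitor of cytokine signalling. They were listed by name as inflammatory and regulatory cytokine genes and looked up in a deposited count table of 37991 gene identifiers, where all 10 were found. Of the 10, 9 passed a filter on low counts and were tested, and Il12a did not pass.

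The libraries came from sorted spleen cells of 12 female mice, 6 wild-type (WT) B6 and 6 TLR7.1, at 9.4 to 15.7 weeks of age. TLR7.1 mice overexpress Tlr7, an endosomal receptor for single-stranded RNA. Each mouse gave a library of Ly6C-high monocytes (Mono) and a library of red pulp macrophages (RPM), resident cells that remove senescent erythrocytes and recycle their iron. A further library from every TLR7.1 animal held inflammatory hemophagocytes (iHPC), which take up blood cells. The 5 groups were thus Mono and RPM of each genotype and iHPC of TLR7.1 mice, with 6 libraries in each and 500 sorted cells per library. All cells were gated as live, positive for CD45.2 and lacking SiglecF and Ly6G. Mono carried Ly6C, Ccr2 and CD11b. RPM lacked Ly6C, were low for CD31, high for VCAM, positive for F4/80, and negative or intermediate for CD11b. iHPC lacked Ly6C, were high for CD31, low for VCAM and F4/80, and positive for CD11b. No WT iHPC library was analysed here, so what belongs to iHPC and what belongs to Tlr7 overexpression in them cannot be told apart.

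As background, endosomal receptors such as TLR7 signal through MyD88 to NF-kB and interferon regulatory factors, and so switch on cytokine genes in phagocytes. Interleukin 6, tumour necrosis factor and the interleukin 12 subunits are induced ligands that drive inflammation, while interleukin 10 and the interleukin 1 receptor antagonist hold it back. SOCS3 is induced through STAT3 and limits signalling from the interleukin 6 receptor, and interleukin 10 acts through STAT3 as well.

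Library totals ran from 95002 counts, in the WT RPM library of mouse 24323, to 1932427, with group medians between 544757 in WT RPM and 1656511.5 in TLR7.1 Mono. Levels are given as CPM, counts scaled to normalised library sizes, with n = 6 in every group, and as CPM per kilobase of exon (RPKM) where genes are set beside each other. Mono and RPM libraries held their markers: the sum of 7 monocyte genes was 4610 to 6519 CPM in Mono libraries and at most 158 CPM in any other. The sum of 8 RPM genes was 4803 to 12985 CPM in RPM, 792 to 1285 CPM in iHPC and at most 314 CPM in Mono. Vcan of the monocyte list and Timd4, Siglec1 and C6 of the RPM list were at 0 in all 6 iHPC libraries. For iHPC the only list was 4 genes of the sorting gate, Pecam1, Itgam, Adgre1 and Vcam1. Their sum was 1104 to 1301 CPM in iHPC, between 633 to 826 CPM in Mono and 1918 to 6466 CPM in RPM. In 5 of the 6 iHPC libraries markers of basophils and mast cells were high. A list of 13 basophil and mast cell genes summed to 2846 to 5020 CPM in these 5 and to 131 CPM in that of mouse 24261. The other groups held 0 to 23.4 CPM. Tpsb2 of that list was at 0 in iHPC. Transcripts of other cell types were present in all 6 iHPC libraries. Megakaryocyte and platelet genes summed to 141 to 247 CPM, against at most 21.1 CPM in Mono and 112 CPM in RPM. Erythroid genes summed to 369 to 1274 CPM, against at most 39.4 CPM in Mono and 120 to 1659 CPM in RPM. B cell genes summed to 187 to 583 CPM, against at most 312 CPM in Mono and 128 to 1505 CPM in RPM. Their part in the iHPC levels was not tested. Fewer cells of a type and less RNA per cell cannot be told apart in these bulk libraries.

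The sequences upstream of Il6, Il12b, Il1a and Socs3 are shown because these genes stand for an induced ligand, a subunit found in iHPC alone, an RPM transcript and the feedback inhibitor, and because short motifs of inducible transcription could be searched in them. RefSeq promoters of assembly GRCm38.p6 were matched for 7 of the 10 members, and Il10, Il15 and Il27 had no entry. Each line holds the 250 bases before the annotated start site, 5′ to 3′ on the strand of the gene, with motif matches in capitals. The windows are chr5:30012864-30013113 on the plus strand for Il6, chr11:44399813-44400062 on the plus strand for Il12b, chr2:129309973-129310222 on the minus strand for Il1a and chr11:117969367-117969616 on the minus strand for Socs3.
Il6: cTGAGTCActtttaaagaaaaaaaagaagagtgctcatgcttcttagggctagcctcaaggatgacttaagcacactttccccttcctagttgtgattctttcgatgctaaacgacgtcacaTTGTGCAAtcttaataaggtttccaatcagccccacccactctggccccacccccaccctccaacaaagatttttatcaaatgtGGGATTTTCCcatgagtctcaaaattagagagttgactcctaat
Il12b: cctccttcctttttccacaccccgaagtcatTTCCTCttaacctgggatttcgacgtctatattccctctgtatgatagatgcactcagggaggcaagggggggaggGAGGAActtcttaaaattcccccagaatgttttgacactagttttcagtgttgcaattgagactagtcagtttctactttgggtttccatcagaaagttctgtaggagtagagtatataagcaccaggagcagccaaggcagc
Il1a: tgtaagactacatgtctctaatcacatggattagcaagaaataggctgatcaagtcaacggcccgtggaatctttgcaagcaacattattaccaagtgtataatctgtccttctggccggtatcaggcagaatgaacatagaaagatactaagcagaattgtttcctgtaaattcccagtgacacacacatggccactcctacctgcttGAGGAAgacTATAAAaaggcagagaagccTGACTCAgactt
Socs3: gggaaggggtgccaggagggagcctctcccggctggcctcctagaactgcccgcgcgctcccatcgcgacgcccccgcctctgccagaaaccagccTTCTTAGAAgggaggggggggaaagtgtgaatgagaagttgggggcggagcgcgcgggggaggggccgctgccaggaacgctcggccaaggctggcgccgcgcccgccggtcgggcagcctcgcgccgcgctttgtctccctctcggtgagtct
The search covered 7 motifs on both strands. The Il6 window held a match to the NF-kB motif (GGG and TTCC separated by any 3 bases) at bases -44 to -35 from the start site, to the AP-1 motif TGANTCA at -249 to -243 and to the C/EBP motif TTGCNNAA at -128 to -121, the last on the minus strand. The Il12b window held the PU.1 motif GAGGAA at -143 to -138 and, on the minus strand, at -219 to -214. The Il1a window held GAGGAA at -41 to -36, the TATA motif TATAAA at -32 to -27 and TGANTCA at -12 to -6. The Socs3 window held the STAT motif TTCNNNGAA at -154 to -146. The interferon response core (2 GAAA runs separated by any 2 bases) was in none of these 4 windows. Among 32851 windows of the same length, 4.65% held the NF-kB motif, 6.75% AP-1, 9.56% C/EBP, 7.02% STAT, 23.3% PU.1, 12.4% TATA and 2.98% the interferon response core. A match is a run of letters and not a measured binding site.

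iHPC held the highest Il6, Il12b and Il10 of the 5 groups and the lowest Il15, while Il1a was an RPM transcript and Il1rn and Socs3 were low in RPM. In the test of iHPC against TLR7.1 RPM of the same mice (edgeR quasi-likelihood test, two-sided, Benjamini-Hochberg adjustment, called at an adjusted p under 0.05), 6 of the 9 members tested were higher in iHPC, 2 were lower and Il27 did not pass. Of all 11030 genes tested there, 27.1% were called, 13.6% higher and 13.5% lower. Against TLR7.1 Mono, 3 members were higher in iHPC, 2 were lower and 4 did not pass, with 38.7% of all genes called, 19.3% higher and 19.4% lower. Both comparisons use the same iHPC libraries. The filter asked for 8.64 CPM in 6 libraries, and Il6, Il10 and Il12b reached it in 6 iHPC libraries but in only 3, 5 and 0 of the others, so these genes could enter the test only by being high in iHPC. Il1a likewise reached it in 12 RPM libraries and 1 other. The counts are therefore a description of the panel. The median log2 fold change of the 9 members was 2.94 against RPM and 0.49 against Mono, and that of all genes was -0.00475 and 0.00471. In the medians of the members a group at 0 counts was given a floor of 3 counts. This set Il12b in both comparisons and Il6 against RPM.

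**Figure D1:**
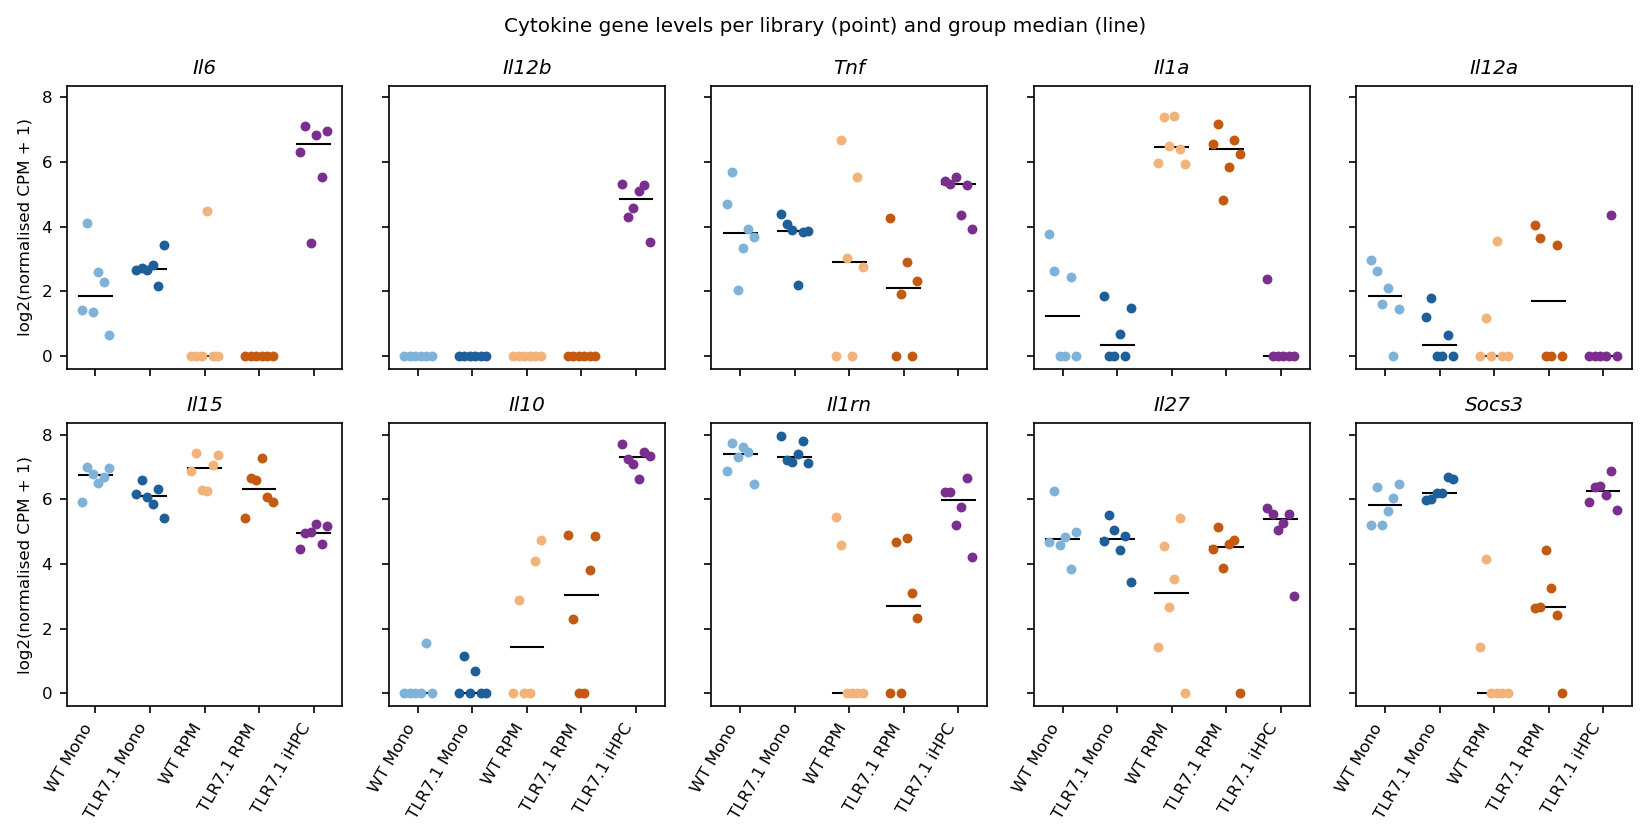
Level of each of the 10 genes as log2(normalised CPM + 1), with 1 point per library and a line at the median of the 6 libraries of a group. All 6 iHPC points lie above every point of TLR7.1 RPM and TLR7.1 Mono for Il6, Il10 and Il12b and lie under them for Il15, and the RPM points of Il1a lie above all others.

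Il6 (ENSMUSG00000025746), the ligand of the acute phase response, ran from 10.2 to 139 CPM in iHPC with a median of 95.5 CPM. TLR7.1 RPM held 0 counts in all 6 libraries, and WT RPM held 2 counts, both in the shallow library of mouse 24323. TLR7.1 Mono ran from 3.50 to 9.91 CPM with a median of 5.47 CPM, and WT Mono from 0.586 to 16.3 CPM with a median of 2.78 CPM. The lowest iHPC library, mouse 24261, was thus only just above the highest TLR7.1 Mono library. Against TLR7.1 Mono the log2 fold change was 3.81 ± 0.69 (SE; edgeR, adjusted p = 5.7e-05). Without mouse 24261 it was 4.02 ± 0.72, and with mouse 24261 as the only iHPC library it was 0.76 ± 1.61 (edgeR, adjusted p = 0.88), a fit that takes the spread of that library from the other groups.

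Il12b (ENSMUSG00000004296) encodes the p40 subunit shared by interleukins 12 and 23. Its 188 counts all came from iHPC, and the 24 libraries of the other groups held 0 counts. The iHPC libraries ran from 10.6 CPM, which was 3 counts in the shallow library of mouse 24380, to 38.8 CPM, with a median of 28.3 CPM. Taking a floor of 3 counts over the group, iHPC were at least 94.3-fold higher than TLR7.1 Mono. The library of mouse 24261 held 23.1 CPM, inside the range of the other 5.

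Tnf (ENSMUSG00000024401), the ligand of the TNF receptors, ran from 14.1 to 45.3 CPM in iHPC with a median of 38.6 CPM. TLR7.1 RPM ran from 0 to 18.2 CPM with a median of 3.37 CPM, and TLR7.1 Mono from 3.63 to 19.8 CPM with a median of 13.6 CPM. The iHPC libraries of mice 24380 and 24304 fell within the range of TLR7.1 Mono, and the other 4 lay above both TLR7.1 populations. WT Mono ran from 3.09 to 50.4 CPM with a median of 12.9 CPM. WT RPM ran from 0 to 101 CPM with a median of 6.47 CPM, so both WT groups reached above every iHPC library. Within each mouse iHPC were higher than RPM in 6 of 6 and higher than Mono in 6 of 6. The log2 fold change against RPM was 2.94 ± 0.88 (edgeR, adjusted p = 0.011), and that against Mono, 1.32 ± 0.73, did not pass (adjusted p = 0.152). When the fit held only the iHPC and TLR7.1 Mono libraries, the latter was 1.40 ± 0.35 and passed (adjusted p = 0.00275).

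Among the iHPC libraries mouse 24261, with 131 CPM of the 13 basophil and mast cell genes, had the lowest Il6 and the highest Tnf, 45.3 CPM against 14.1 to 41.3 CPM in the other 5. Its Il10, Il12b, Il1rn, Il15, Il27 and Socs3 levels lay inside the ranges of the other 5. Mouse 24107, with 5020 CPM of those genes, had the highest Il6. The Il12b of mice 24107 and 24380, the highest pair in those genes, was the lowest of the 6, that of mouse 24380 from 3 counts. Mouse 24261, the lowest in those genes, had the next lowest Il12b, 23.1 CPM. All 8 members called against RPM and all 5 called against Mono remained called when mouse 24261 was left out. With it as the only iHPC library, 3 members were called against RPM (Il6, Il1a and Socs3) and 2 against Mono (Il10 and Il12b). That fit rests on 1 library, and for Il6, Il1a and Il12b on a group at 0 counts. Other markers differed between the iHPC libraries too. The sum of 9 neutrophil genes was 1107 CPM in mouse 24261 and 1497 CPM in mouse 24380, against 141 to 520.1 CPM in the other 4. In TLR7.1 Mono it was 611 to 2226 CPM. In WT Mono it was 521 to 715 CPM, with Ly6g, Retnlg, Camp and Ngp of the list at 0. The sum of 9 T and NK cell genes was 416 CPM in mouse 24107, the library with the highest Il6, and 1.34 to 109 CPM in the others. Cd3e and Klrb1c of that list were at 0 in iHPC. Whether these cells were present, and their part in the iHPC levels, was not tested.

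**Figure D2:**
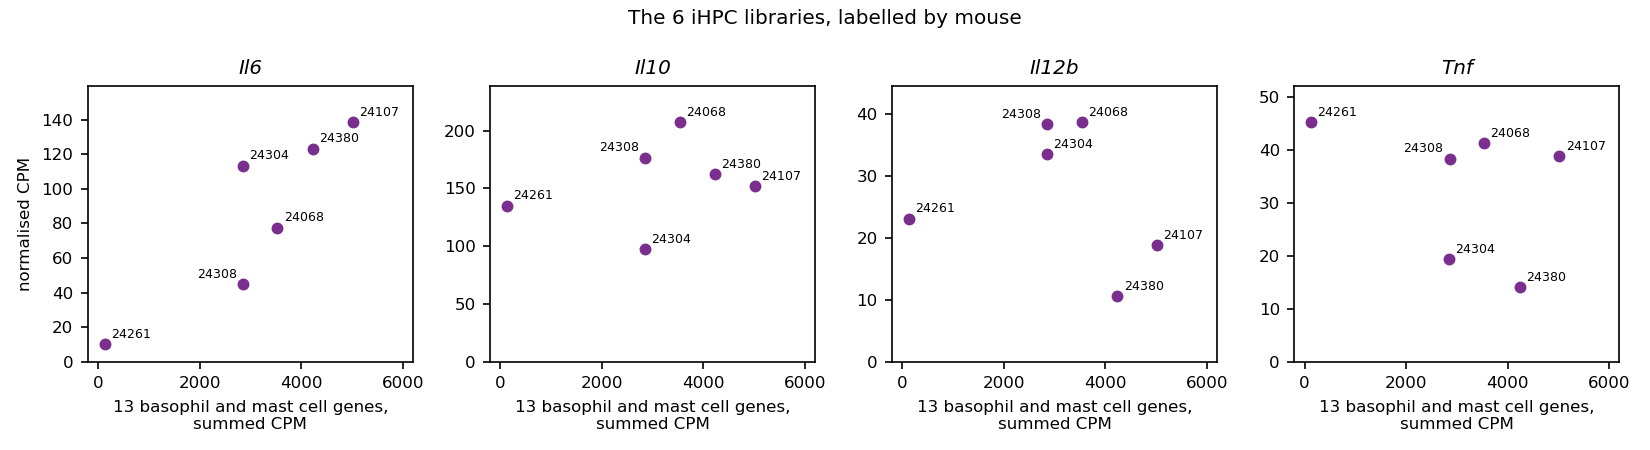
Normalised CPM of Il6, Il10, Il12b and Tnf in the 6 iHPC libraries (vertical axes, from 0) against the summed CPM of 13 basophil and mast cell genes (horizontal axes), with each point labelled by mouse. Mouse 24261 lies at 131 CPM on the horizontal axis, with the lowest Il6 and the highest Tnf, and inside the range of the other 5 libraries for Il10 and Il12b.

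Il10 (ENSMUSG00000016529) was the member with the highest level per length in iHPC, a mean of 118 RPKM, against 36.0 RPKM for Il27 and 34.9 RPKM for Il6. In CPM it ran from 97.3 to 207 in iHPC with a median of 157. TLR7.1 RPM ran from 0 to 28.6 CPM with a median of 8.44 CPM, and WT RPM from 0 to 25.8 CPM with a median of 3.22 CPM. In Mono it was near absent, with 3 counts over the 6 libraries of each genotype. The iHPC libraries stood apart from every other library, and the RPM libraries, of which 5 of 12 held 0 counts, overlapped with Mono. RPM were called higher than Mono in both genotypes, by a log2 fold change of 4.50 ± 1.02 in TLR7.1 (edgeR, adjusted p = 0.000492) and 4.20 ± 1.06 in WT mice (adjusted p = 0.0015). The pooled ratios were 24.0 (95% interval 7.57 to 122) and 22.5 (6.94 to 116), and these intervals cover counting error only. In WT mice the difference was 0 on 21 December, the date of mouse 24323 alone among WT mice, and neither of its libraries held a count. Within mice RPM were higher than Mono in 4 of 6 TLR7.1 mice and lower in 1, and higher in 3 of 6 WT mice. Lymphoid markers moved with the same comparison. In TLR7.1 mice 8 of 8 B cell genes, 4 of 4 plasma cell genes and 5 of 5 T and NK cell genes tested were higher in RPM than in Mono. Their sums in TLR7.1 RPM were 284 to 1505 CPM, 112 to 2048 CPM and 23.3 to 1192 CPM, against at most 219, 17.8 and 36.5 CPM in TLR7.1 Mono. In WT mice 5 of 8, 3 of 4 and 3 of 5 were higher. Their part in the Il10 of RPM was not tested. In iHPC mouse 24261 held 135 CPM of Il10, and with that library as the only iHPC library the difference from RPM, 3.66 ± 1.30, did not pass (edgeR, adjusted p = 0.117).

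Socs3 (ENSMUSG00000053113), the feedback inhibitor with the STAT motif shown above, divided the populations into RPM on the low side and both other populations on the high side. It ran from 49.3 to 116 CPM in iHPC, from 61.5 to 101 CPM in TLR7.1 Mono and from 35.9 to 87.3 CPM in WT Mono, with medians of 75.6, 72.3 and 56.6 CPM. TLR7.1 RPM ran from 0 to 20.6 CPM with a median of 5.32 CPM, and in WT RPM 4 of 6 libraries held 0 counts. RPM did not overlap with Mono in either genotype or with iHPC. The log2 fold change of RPM against Mono was -3.27 ± 0.51 in TLR7.1 (edgeR, adjusted p = 2.59e-06) and -3.40 ± 0.55 in WT mice (adjusted p = 4.52e-06). The ratio of pooled iHPC to pooled TLR7.1 Mono levels was 1.03 (95% counting interval 0.920 to 1.16), and the difference was not called (edgeR, adjusted p = 0.985). A list of 14 genes induced by tissue dissociation was lowest in TLR7.1 RPM, with sums of 577 to 1430 CPM in TLR7.1 RPM, 1466 to 3222 CPM in WT RPM, 1825 to 2803 CPM in iHPC and 4237 to 6569 CPM in Mono. Its part in the Socs3 levels was not tested.

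Other genes known to respond to interleukin 10 were set beside it. Of 9 such genes, among them the members Il1rn and Socs3, 7 were higher in iHPC than in TLR7.1 RPM and 0 were lower, with a median log2 fold change of 1.86, beside 13.6% of all genes higher and 13.5% lower. The dissociation response list moved the same way, with 8 of 14 higher and 0 lower, and its part in these counts was not tested. Etv3, a transcriptional repressor, ran from 95.9 to 177 CPM in iHPC and from 5.21 to 47.8 CPM in TLR7.1 RPM, a log2 fold change of 2.49 ± 0.40. Sbno2, a co-regulator downstream of STAT3, differed by 2.41 ± 0.44. Against TLR7.1 Mono the same list gave 0 higher and 4 lower, beside 19.3% of all genes higher and 19.4% lower. The median was -0.02, and the largest falls were Nfil3 at -2.23 ± 0.60 and Il1rn. RPM were below Mono for 7 of the 9 genes in TLR7.1 and for 7 of the 9 in WT mice, beside 10 and 7 of the 14 dissociation response genes. Of all genes, 22.6% were lower in RPM than in Mono in TLR7.1 mice and 22.5% in WT mice. These 2 comparisons of RPM with Mono share no library, but the iHPC comparisons share libraries with the first.

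**Figure D3:**
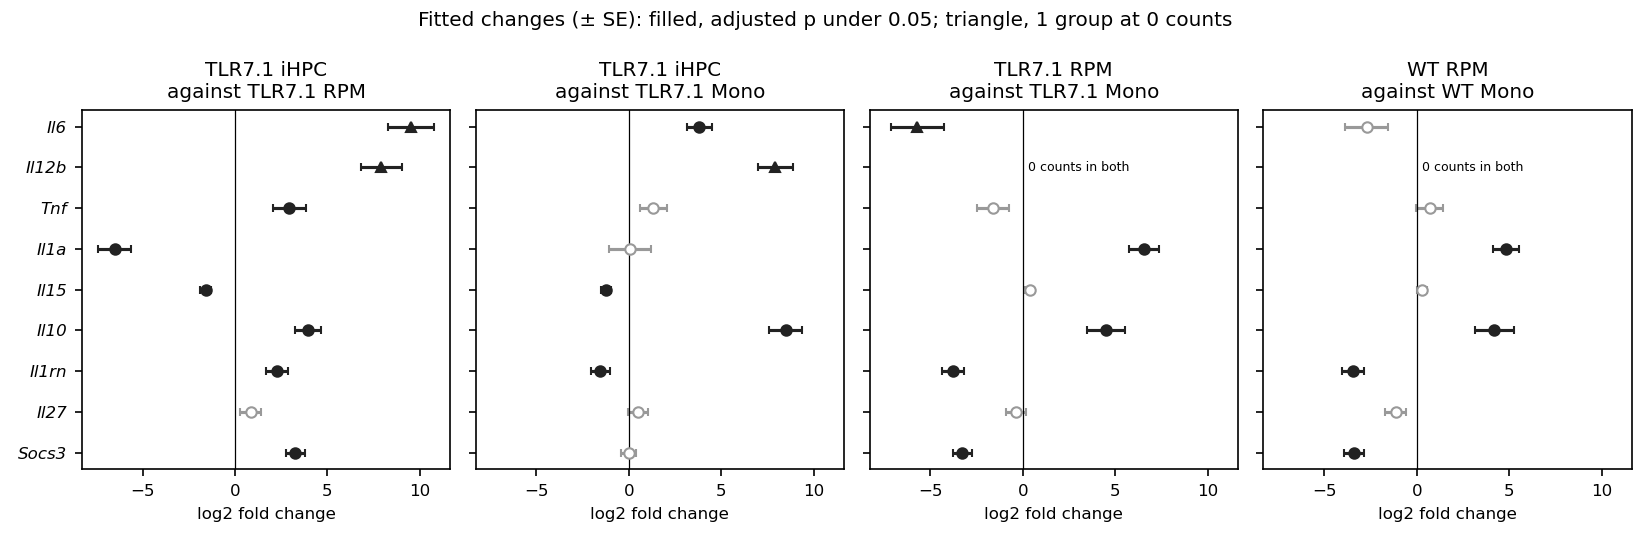
Fitted log2 fold changes (± SE) of the 9 members tested, in the 4 comparisons between populations, with filled symbols for an adjusted p under 0.05 and triangles where 1 group held 0 counts, so that the fitted value is no bound. Il1a lies at -6.50 in iHPC against RPM and at 6.56 in TLR7.1 RPM against Mono, while Il1rn and Socs3 lie on the opposite side in both.

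Il1a (ENSMUSG00000027399), which encodes an alarmin that binds the interleukin 1 receptor, was the member most restricted to RPM. WT RPM ran from 60.2 to 171 CPM with a median of 86.8 CPM, and TLR7.1 RPM from 27.5 to 143 CPM with a median of 84.7 CPM. In iHPC 5 of 6 libraries held 0 counts and mouse 24068 held 5 counts, and in TLR7.1 Mono the highest library stood at 2.64 CPM. Every RPM library lay above every Mono and iHPC library. The pooled ratio of TLR7.1 RPM to iHPC was 111 (95% counting interval 47.2 to 344), and the fitted log2 fold change of iHPC against RPM, -6.50 ± 0.88 (edgeR, adjusted p = 6.48e-07), rests on the 5 counts of mouse 24068, without which iHPC held 0 counts. RPM against Mono gave 6.56 ± 0.83 in TLR7.1 (adjusted p = 7.42e-08) and 4.83 ± 0.72 in WT mice (adjusted p = 1.3e-06).

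Il1rn (ENSMUSG00000026981), whose product occupies the same receptor without signalling, ran in the opposite order. WT Mono ran from 88.5 to 211 CPM and TLR7.1 Mono from 139 to 247 CPM, with medians of 166 and 159 CPM. iHPC ran from 17.6 to 101 CPM with a median of 63.1 CPM, below every TLR7.1 Mono library. In RPM 4 of 6 WT libraries and 2 of 6 TLR7.1 libraries held 0 counts, and the highest stood at 43.0 CPM. iHPC were higher than TLR7.1 RPM by 2.26 ± 0.59 (edgeR, adjusted p = 0.00374) with overlap between the groups, and lower than TLR7.1 Mono by a log2 fold change of -1.54 ± 0.50 (adjusted p = 0.0148). DESeq2 gave -1.62 ± 0.73 for the latter, which did not pass (adjusted p = 0.0605). Per length, Il1a exceeded Il1rn in 12 of 12 RPM libraries and Il1rn exceeded Il1a in all 18 Mono and iHPC libraries.

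**Figure D4:**
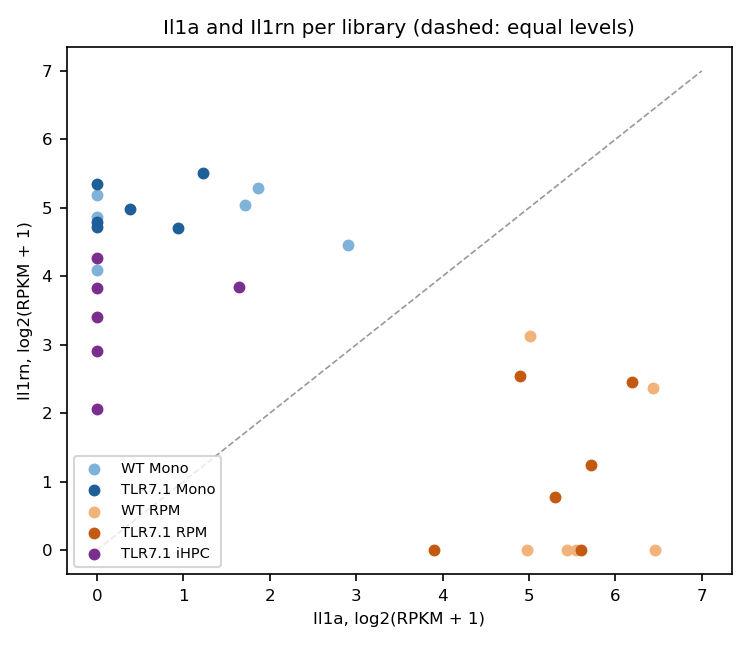
Il1rn against Il1a in each of the 30 libraries, both as log2(RPKM + 1), with colours for the 5 groups and a dashed line at equal levels. The 12 RPM libraries lie on the Il1a side of the line and the 18 Mono and iHPC libraries on the Il1rn side.

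Il15 (ENSMUSG00000031712), a growth factor for NK and memory T cells that phagocytes present on the interleukin 15 receptor alpha chain, was detected in all 30 libraries. It ran from 21.1 to 36.9 CPM in iHPC with a median of 30.2 CPM, below every library of the other 4 groups. TLR7.1 Mono ran from 41.5 to 96.0 CPM, TLR7.1 RPM from 41.7 to 156 CPM, WT Mono from 59.0 to 126 CPM and WT RPM from 74.9 to 172 CPM. The log2 fold change of iHPC was -1.59 ± 0.28 against RPM (edgeR, adjusted p = 5.36e-05) and -1.23 ± 0.28 against Mono (adjusted p = 0.000668). Mouse 24261 alone gave -1.50 and -1.18, which did not pass (adjusted p = 0.183 and 0.26). RPM and Mono did not differ by the test in either genotype (adjusted p = 0.27 in TLR7.1 and 0.353 in WT mice). Il15ra, the presenting chain, was lower in RPM than in Mono, by -1.68 ± 0.41 in TLR7.1 and -1.93 ± 0.44 in WT mice.

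Il27 (ENSMUSG00000044701) encodes the p28 subunit that pairs with EBI3 to form interleukin 27. It was spread over all populations, with medians of 41.5 CPM in iHPC, 22.2 CPM in TLR7.1 RPM, 26.5 CPM in TLR7.1 Mono, 8.05 CPM in WT RPM and 26.2 CPM in WT Mono. The iHPC libraries ran from 7.04 to 52.3 CPM, TLR7.1 RPM from 0 to 34.1 CPM and TLR7.1 Mono from 9.91 to 44.9 CPM, so all 3 overlapped. Within mice iHPC were higher than RPM in 6 of 6 and higher than Mono in 5 of 6, and neither difference passed (edgeR, adjusted p = 0.28 and 0.493). In WT mice RPM against Mono missed the threshold too (log2 fold change -1.14 ± 0.59, adjusted p = 0.11). With the mouse as a block it was -1.67 ± 0.61 and passed (adjusted p = 0.0281), and without mouse 24415 it was -1.97 ± 0.63 (adjusted p = 0.0132). The partner gene Ebi3 was called in both comparisons, with log2 fold changes of 1.86 ± 0.29 against RPM and 1.10 ± 0.28 against Mono, and it ran from 59.9 to 253.5 CPM in iHPC. Per length Ebi3 exceeded Il27 in 30 of 30 libraries.

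Il12a (ENSMUSG00000027776), the p35 subunit that joins p40 to form interleukin 12, was sparse everywhere. Only 5 libraries reached the 8.64 CPM of the filter, 3 of TLR7.1 RPM, 1 of WT RPM and 1 of iHPC. Among iHPC, mouse 24308 held 24 counts, which was 19.6 CPM, and the other 5 libraries held 0 counts. The 188 counts of Il12b in iHPC were thus met by Il12a counts in a single library. In TLR7.1 RPM mice 24068, 24107 and 24308 held 15.6, 11.6 and 9.75 CPM and the other 3 held 0 counts. Without a filter on low counts no comparison of Il12a passed, the closest being TLR7.1 RPM against TLR7.1 Mono (log2 fold change 2.84 ± 1.22, edgeR, adjusted p = 0.0745). That comparison was called without mouse 24028, 24117, 24415 or 24416, at adjusted p between 0.043 and 0.0495, fits in which fewer libraries were needed to pass the filter. Il23a, the p19 subunit that joins p40 to form interleukin 23, gave 1 count in all 30 libraries, in the iHPC library of mouse 24308.

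**Figure D5:**
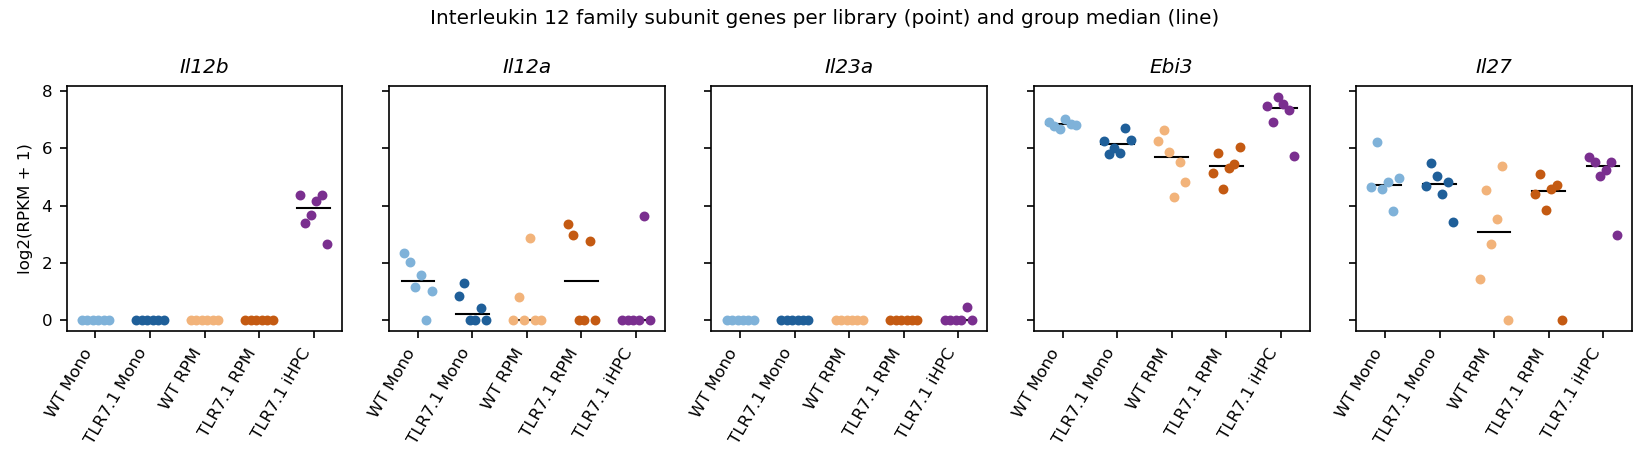
Level per length, as log2(RPKM + 1), of the 5 subunit genes of the interleukin 12 family in each library, with a line at the median of each group of 6. Il12b is above 0 in the 6 iHPC libraries alone, Il12a in 1 of them, Il23a in 1 of the 30 libraries, and Ebi3 in all 30 libraries.

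RPM against Mono was compared in both genotypes for all 9 members tested. In TLR7.1 mice 2 members were higher in RPM and 3 lower, with 46.6% of all genes called (23.9% higher and 22.6% lower). In WT mice 2 were higher and 2 lower, with 46.2% of all genes called (23.7% higher and 22.5% lower). Il10 and Il1a were the higher members and Il1rn and Socs3 the lower members in each genotype. Il6 in TLR7.1 RPM was at least 8.58-fold lower by a floor of 3 counts over the group, with an adjusted p of 0.00163 by edgeR. In WT mice the same difference missed the threshold (log2 fold change -2.69 ± 1.17, edgeR, adjusted p = 0.059) and rested on the 2 counts of mouse 24323. Without that mouse WT RPM held 0 counts and the difference was called (edgeR, adjusted p = 0.00744), with a fitted size that is no bound. Tnf, Il15 and Il27 passed in neither genotype, and Il12b held 0 counts in both populations.

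Tlr7 overexpression was compared with WT within Mono and within RPM. In Mono 0 of 9 members were called by edgeR, and DESeq2 called 0 as well, while 2.10% of all genes were called, 1.80% higher and 0.299% lower. At an unadjusted p under 0.05 there were 2, Il15 and Il1a. Il15 ran from 59.0 to 126 CPM in WT Mono and from 41.5 to 96.0 CPM in TLR7.1 Mono (edgeR, adjusted p = 0.566), with overlapping groups, and Il1a gave 30 counts in Mono of WT mice and 7 in those of TLR7.1 mice. Il6 and Tnf, induced ligands, did not pass in Mono, and the largest Il6 level, 16.3 CPM, was that of a WT mouse, 24117. Il12b, also counted among the 9, held 0 counts in all Mono libraries and could not be called. Of 6 neutrophil genes tested in the same comparison, 4 were higher in TLR7.1 Mono and 0 lower. Their part in the Mono levels was not tested.

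In RPM 1 of 9 members was called, Tnf, with 8.25% of all genes called, 4.48% higher and 3.77% lower. Il12b, at 0 counts in all Mono and RPM libraries, could not be called here or in the difference between genotype effects below. Tnf was lower in TLR7.1 RPM, by a log2 fold change of -2.82 ± 0.89 (edgeR, adjusted p = 0.0431). The groups overlapped: WT RPM held 0, 101, 0, 7.20, 45.8 and 5.74 CPM in mice 24028, 24117, 24323, 24214, 24415 and 24416, and TLR7.1 RPM ran from 0 to 18.2 CPM. Mouse 24117 gave 157 of the 186 counts in WT RPM. Without it the log2 fold change was -1.58 ± 0.88 and did not pass (adjusted p = 0.244), and the call was lost in 7 of the 12 fits that left out 1 mouse each. It was also lost with the mouse as a random block in limma-voom (-2.47 ± 1.04, adjusted p = 0.141), with the collection date as a covariate (-2.56 ± 0.87, adjusted p = 0.0646) and with no filter on low counts (-2.85 ± 0.87, adjusted p = 0.0542). With only the RPM libraries in the fit 0 members were called, but Tnf was not tested there. It reached the 8.64 CPM of the filter in 2 WT RPM and 1 TLR7.1 RPM libraries, where 6 were needed. By collection date the difference in log2(CPM + 1) was -1.20 on 13 December, 1.45 on 21 December and -1.67 on 26 December. In the same comparison 7 of the 14 dissociation response genes were lower in TLR7.1 RPM and 0 higher, and their part in the Tnf result was not tested. Mouse 24117 also gave 26 of the 27 counts of Socs3 in WT RPM. Without it WT RPM held 1 count and Socs3 was called higher in TLR7.1 RPM (edgeR, adjusted p = 0.00569), and with all mice it did not pass (adjusted p = 0.662). The difference between the genotype effects of the 2 populations was called for 0 of 9 members by edgeR and 0 by DESeq2, against 0.689% of all genes (0.399% higher and 0.290% lower), with 1 member, Tnf, at an unadjusted p under 0.05.

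Genes of the wider pathway are given by list, and their counts are read beside the shares of all genes: 13.6% higher and 13.5% lower in iHPC against RPM, and 19.3% higher and 19.4% lower against Mono. Of 12 receptor genes tested, 5 were higher and 1 lower in iHPC than in TLR7.1 RPM. Against TLR7.1 Mono 1 was higher and 3 were lower, together 4 of 12 where 38.7% of all genes were called. Il12rb2, a signalling chain of the interleukin 12 receptor, was higher in iHPC by 2.39 ± 0.73 against RPM and 2.09 ± 0.67 against Mono. It ran from 10.6 CPM, 3 counts in mouse 24380, to 62.4 CPM in iHPC. TLR7.1 RPM reached 15.9 CPM, TLR7.1 Mono 12.8 CPM, WT Mono 35.8 CPM and WT RPM 34.2 CPM, so each overlapped with iHPC. Il27ra was higher than in RPM by 2.52 ± 0.88 and Il10ra, the ligand-binding chain for interleukin 10, by 1.32 ± 0.20. Tnfrsf1a and Tnfrsf1b, the TNF receptors, were lower than in Mono by -1.64 ± 0.19 and -1.35 ± 0.18, and Il6ra by -1.18 ± 0.24. Il1r2, the decoy receptor of interleukin 1, held 0 counts in all 12 RPM libraries, reached 40.2 CPM in TLR7.1 Mono, where all 6 libraries held counts, and 16.3 CPM in iHPC. Il1r1, the signalling receptor, did not pass the filter, and its 49 counts in WT RPM and 29 in TLR7.1 RPM were all it had. Between genotypes 0 of 12 were called in Mono, and Il6ra (-1.20 ± 0.25) and Il6st (-1.78 ± 0.54) were lower in TLR7.1 RPM than in WT RPM.

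Among 10 partner and related cytokine genes, 5 were higher and 2 lower in iHPC than in RPM, and 5 were higher and 3 lower than in Mono. Il1b, the other agonist of the interleukin 1 receptor, ran from 986 to 1951 CPM in iHPC, from 168 to 341 CPM in TLR7.1 RPM and from 301 to 520 CPM in TLR7.1 Mono, so that the iHPC libraries lay above all of these. Its log2 fold changes were 2.38 ± 0.26 and 1.66 ± 0.25, so Il1a and Il1b went in opposite directions against RPM. Il18 followed the order of Il1a, with 380 to 711 CPM in TLR7.1 RPM and 14.1 to 46.6 CPM in iHPC. Osm, a cytokine of the interleukin 6 family, was higher in iHPC than in RPM (4.47 ± 0.76) and lower than in Mono (-1.58 ± 0.51). In the iHPC library of mouse 24261 Osm stood at 3.70 CPM, the lowest of the 6, and in that of mouse 24380 at 10.6 CPM from 3 counts. TLR7.1 RPM reached 10.8 CPM of Osm, so iHPC and RPM overlapped. Csf1 was higher in iHPC than in each (2.68 ± 0.91 and 2.60 ± 0.85).

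Of 6 other SOCS genes, 0 were called higher and 1 lower in iHPC than in RPM. Socs2 was that gene, at -1.77 ± 0.53, and against Mono it was higher by 4.89 ± 0.76. Among 12 transcription regulators of cytokine genes, 7 were higher and 2 lower in iHPC than in RPM, and 4 were higher and 5 lower than in Mono. Nfkbiz, an inducible nuclear cofactor of NF-kB for Il6 and Il12b, ran from 438 to 750.1 CPM in iHPC, above every library of the other groups, with log2 fold changes of 3.20 ± 0.24 and 2.27 ± 0.22. Mouse 24261 held the lowest of these iHPC levels, 438 CPM. Irf8 was lower in iHPC than in RPM (-2.27 ± 0.18) and Mono (-1.97 ± 0.18), and Maf, a known activator of Il10, was lower than in RPM (-1.98 ± 0.30) and higher than in Mono (2.01 ± 0.31). Of 8 regulators of cytokine messenger RNA, 3 were higher and 1 lower than in RPM. Zfp36, which encodes the decay factor tristetraprolin, was lower in iHPC than in Mono (-1.39 ± 0.21) and lower in TLR7.1 RPM than in WT RPM (-1.14 ± 0.22), the latter beside the lower dissociation response sum of TLR7.1 RPM given for Socs3, of which Zfp36 is a member.

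The genes with levels most like those of 4 members were listed by Pearson correlation of log2(CPM + 1) over the 30 libraries, as a description. They were Hdc (0.845), Gk (0.842) and Cpa3 (0.838) for Il6, and Gcnt1 (0.889), Smad1 (0.887) and Slit3 (0.882) for Il10. For Il12b they were Cxcl14 (0.988), Ifnlr1 (0.960) and Sox5 (0.960), and for Il1a they were Igf1 (0.945), Stab2 (0.939) and Crip2 (0.937). Hdc and Cpa3 are of the basophil and mast cell list, whose part in the Il6 levels was not tested. The 30 points share their population, depth and mouse.

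Per length the order of the members differed between the populations. In TLR7.1 RPM Il1a was highest, at a mean of 42.1 RPKM, and Il15 stood at 38.2 RPKM, a gap smaller than their SDs of 20.1 and 17.9 RPKM, with Il27 at 19.3 RPKM. In WT RPM Il15 at 54.4 RPKM and Il1a at 53.7 RPKM were in the other order and as close. In TLR7.1 Mono Il1rn, Il15, Socs3 and Il27 stood at 32.0, 30.2, 27.0 and 26.3 RPKM, closer together than the spread between libraries. In iHPC Il10 at 118 RPKM was followed by Il27, Il6, Socs3 at 26.5 RPKM, Tnf at 20.1 RPKM, Il12b at 13.8 RPKM, Il15 at 13.1 RPKM and Il1rn at 10.7 RPKM. The iHPC libraries of Il10 all lay above those of Il27. Across the 3 collection dates 21 of the 23 calls in these comparisons kept their sign within each date. The exceptions were Il10 in WT RPM against Mono and Tnf between genotypes in RPM, both given with their dates. Where the groups compared did not overlap, the sign within a date was fixed in advance. That held for all calls but these exceptions, Tnf and Il1rn in iHPC against RPM, and Il10 in TLR7.1 RPM against Mono.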

How the data were processed

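The deposited table held raw read counts per gene for 30 libraries. Per the labels' protocols, 500 cells per library were lysed, full-length cDNA was amplified with the SMART-Seq v4 kit and libraries were made with Nextera XT. Per the submitters' processing notes the tools included HTSeq 0.4.1, TopHat, Bowtie, SAMtools, Picard, FastQC and CASAVA 1.8.2, with build NCBIM37. Tool settings, annotation release and strand use: not given in the sources used here. Reads per molecule are not known, so intervals and floors cover counting error only.

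Gene symbols and exon lengths came from GENCODE M21 on GRCm38, by gene identifier, and the 32919 identifiers with a symbol held 99.11% of counts. CPM and RPKM were computed here on TMM-normalised library sizes. Genes needed at least 10 counts at the median library total, which is 8.64 CPM, in 6 libraries, and 11030 passed. edgeR 4.0.16 in R 4.3.3 fitted all 30 libraries with 1 mean per group and tested each comparison with the two-sided quasi-likelihood test, with p-values adjusted by Benjamini-Hochberg over all genes tested and called under 0.05. A group at 0 counts was given a floor of 3 counts over the group, and ratios of pooled levels have exact 95% intervals. The scripts were tested on simulated data.

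The 10 members were taken by name. The 3 genes most correlated with each of 4 members, and up to 4 of the largest called genes per list and comparison, were eligible to be named; a few others, such as Il23a, Il1r1, Il6st and Zfp36, were chosen after their values were seen. Members and lists were chosen with earlier results of these data known.

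Libraries of 1 mouse share its number, so the numbers pair the samples. Correlations of same-mouse deviations ran from 0.0103 to 0.0893 for WT Mono with RPM, from -0.00644 to 0.0596 for TLR7.1 Mono with RPM, from 0.00634 to 0.0626 for Mono with iHPC and from -0.0795 to 0.196 for RPM with iHPC. Alternatives were DESeq2 1.42.0, its size factors in edgeR, no filter, a fit of only the groups compared, the mouse as a block, the mouse as a random block in limma 3.58.1, the collection date as a covariate, leaving out libraries under 300000 counts and leaving out each mouse. The fit with mouse 24261 as the only iHPC library was added after seeing the data.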

Additional observations from a re-analysis of the deposited data

Results flagged for a closer look

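Within the groups of 6 libraries, 45 sets of a member and a group had any spread. In 9 of them the highest library was farther from the next than Dixon's limit of 0.625 of the range allows. About 1 in 20 groups of normally distributed values pass that limit. CPM with libraries at 0 counts are not so distributed, so the 9 are a description and not an excess. In 4 of the 9 the other libraries held 0 counts, and 3 rested on 3 or fewer counts.

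Mouse 24117 accounted for 3 of them: Il6 in its WT Mono library was 16.3 CPM from 25 counts, Il27 in the same library was 75.2 CPM from 115 counts, and Socs3 in its WT RPM library was 16.7 CPM from 26 counts. The shallow WT RPM library of mouse 24323 held 21.4 CPM of Il6 from 2 counts and 10.7 CPM of Il12a from 1 count. Il10 in the WT Mono library of mouse 24415 was 1.92 CPM from 3 counts. In TLR7.1 mice, Il12a in the iHPC library of mouse 24308 was 19.6 CPM from 24 counts, Il1a in the iHPC library of mouse 24068 was 4.22 CPM from 5 counts, and Tnf in the RPM library of mouse 24068 was 18.2 CPM from 7 counts.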

How the results depend on the processing

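Of the fits of called members under the alternatives, 425 kept their direction and call and 19 lost the call. Fits in which a member was not tested are outside this tally. It includes fits that left out a mouse with no library in the comparison, which change only the shared spread, scaling and filter. The count of members called between genotypes in RPM was 1 with all libraries. It was 0 with no low-count filter, with the mouse as a random block in limma-voom and with the date as a covariate. With only the groups compared it was 0 as well, but Tnf was not tested in that fit. When each mouse was left out it was 0 to 1. For Tnf there, the log2 fold change ran from -3.66 to -1.58 over those 12 fits, and the call was lost without mouse 24117, 24107, 24308, 24261, 24415, 24380 or 24304. Without mouse 24261 the Socs3 difference between genotypes in RPM, not called, turned to -0.0195 (edgeR, adjusted p = 0.994). Over the 12 fits it ran up to 3.78, the fitted value without mouse 24117 (edgeR, adjusted p = 0.00569), where WT RPM held 1 count. With only the groups compared, TLR7.1 RPM against Mono gave 3 members in place of 5, iHPC against RPM 6 in place of 8 and WT RPM against Mono 3 in place of 4. The members lost there were not tested in those fits: Il6 and Il10, Il6 and Il12b, and Il10. iHPC against Mono gave 6 in place of 5, with Tnf added. With mouse 24261 as the only iHPC library, 3 in place of 8 were called against RPM and 2 in place of 5 against Mono, a fit with 1 iHPC library. Il6 in WT RPM against Mono passed in DESeq2 (-2.60, adjusted p = 0.0332), without libraries under 300000 counts (adjusted p = 0.00611, with WT RPM at 0 counts) and without mouse 24261 (-2.70, edgeR, adjusted p = 0.0471). The cause was not tested for these changes. With the mouse as a replicate block the members called were 8, 5, 5 and 5 in the 4 comparisons of populations, and Il27 in WT mice, at -1.67, was the only change.

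Over all genes, 2993 were called for iHPC against RPM, 1753 with only those groups in the fit and 645 with mouse 24261 alone. For iHPC against Mono 4270 became 1173 with that mouse alone. Between genotypes 232 became 737 in Mono and 910 became 160 in RPM with only the groups compared, and limma-voom gave 403 in Mono. The genotype difference between populations gave 76 genes in edgeR and 209 in DESeq2. Depth limits the RPM values most: 3 libraries held under 300000 counts, 2 of RPM and 1 of iHPC.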
